A study of Mus musculus with 8 samples.

Results

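The collagen genes described here are the 44 protein-coding mouse genes whose symbol is Col, a number, a and a number (*Col1a1* to *Col28a1*), out of the 28432 genes, 17702 of them protein coding, in a table of RNA-seq read counts from the embryonic retina. The members were picked by name, not by their values. The family itself was chosen with earlier results of these data known. 31 of the 44 had enough reads to be tested for a difference between genotypes, and 13 did not.

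Each of the 8 samples held both retinas of a single embryo harvested at E15.5, 4 control and 4 *Lhx2* CKO, and the comparison asks which genes depend on *Lhx2*, a LIM homeobox transcription factor of the retinal progenitors. Control embryos were *Lhx2* flox/+ and CKO embryos *Lhx2* flox/KO, and all 8 embryos were heterozygous for *Hes1CreERT2*. Tamoxifen, 0.15 to 0.2 mg per g of body weight, was given by gavage to the pregnant dams of both groups at E11.5. CreERT2 sits in the *Hes1* locus and is active wherever *Hes1* is transcribed, so that every embryo carried the knock-in in place of 1 *Hes1* allele and the controls could also recombine their single floxed *Lhx2* allele. The embryos came from several litters, which the sources used here do not tie to samples.

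Collagens are secreted or membrane-bound proteins built from chains that wind into a triple helix. Fibrillar collagens (types I, II, III, V, XI, XXIV and XXVII) assemble into fibrils, and the FACIT collagens, such as type IX, sit on the surface of fibrils. Type IV forms the network of basement membranes, to which the multiplexins XV and XVIII attach, and the transmembrane collagens XIII, XVII, XXIII and XXV stay anchored in the cell surface. In the eye, fibrils of types II, IX and XI fill the vitreous, and much of that material comes from the inner, neural layer of the ciliary margin and from the neural retina. Basement membrane collagen lines the inner surface of the retina and its vessels, while types I and III belong mainly to the mesenchyme around the eye.

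Total counts per sample were 13143587 to 15063867 in control and 13955259 to 19099937 in CKO. *Lhx2* itself, counted over the whole gene, was 3332 ± 265 normalized counts (SD, n = 4) in control and 2761 ± 143 in CKO (edgeR adjusted p = 0.005), a measure that does not resolve the deleted part and so checks neither the deletion nor the labels. Control replicate 3 stood apart. It was low in markers of the ciliary margin (summed level 805 normalized counts, against 1662 to 2506 in the other controls) and of blood (374 against 1366 to 2344). It was the lowest control for 13 of the 31 tested collagen genes, beside 10 for control replicate 4, while control replicate 1 was the highest control for 16. CKO replicate 1 stood above the other CKO samples for a few genes named below, although over all 31 it was the highest CKO sample for 12 and the lowest for 9, beside 10 and 4 for CKO replicate 4. Calls of named genes that change without control replicate 3 or without CKO replicate 1 are given both ways.

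Among the 31 collagen genes tested, 4 were lower in the CKO and 0 were higher in edgeR's quasi-likelihood test, with p-values adjusted by Benjamini-Hochberg and the study's cutoff of 0.001. Over all 13891 genes tested, 4.97% were called lower, 3.64% higher and 8.61% in either direction. The genes that fell were *Col9a1*, *Col23a1*, *Col2a1* and *Col1a2*, which belong to 4 collagen types and 3 structural classes. Counting 0 higher depends on the cutoff and the tool. DESeq2 at the same cutoff called 1 higher (*Col11a2*) and 9 lower, against 7.57% and 8.78% of all genes, and at an unadjusted edgeR p below 0.05 there were 5 higher and 13 lower, against 21.3% and 22.3%. At an adjusted p below 0.05, edgeR called 2 higher (*Col11a2* and *Col22a1*) and 11 lower, against 15.9% and 17.4% (33.3% in either direction). All 4 CKO samples lay below all 4 controls for 9 of the 31 genes and above them for 3, against 17.9% and 15.9% of all genes tested. The median log2 fold change (log2FC, CKO over control) of the 31 was -0.04, beside 0.0053 over all genes, and 17 of the 31 had a log2FC below 0 and 14 above, against 49.2% and 50.8% of all genes. In bulk RNA, fewer cells of a type and less RNA per cell cannot be told apart.

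**Figure D1:**
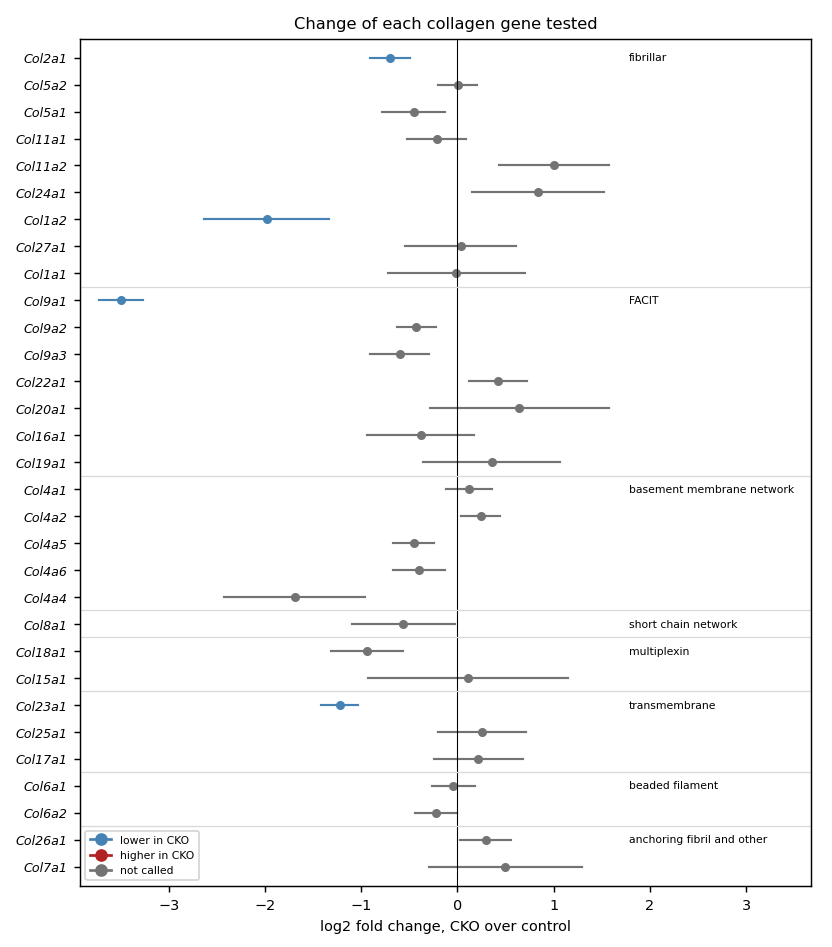
Log2 fold change (x axis, CKO over control, log2 units) of each of the 31 collagen genes tested, grouped by structural class, with points for the edgeR estimate and bars for its 95% interval. *Col9a1* at -3.50, *Col1a2* at -1.98, *Col23a1* at -1.22 and *Col2a1* at -0.71 are coloured as lower; the other 27 are grey and no gene is coloured as higher.

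Summed collagen RNA was lower in every CKO sample than in any control, and *Col9a1* was the largest part of that difference. Summed over the 44 genes, normalized counts were 19526, 18489, 15901 and 16829.7 in the controls, in the order of replicates 1 to 4 as in every list of 4 values here, and 12190.2, 11829, 13237 and 14208 in the CKO. The means were 17686 ± 1628 and 12866 ± 1076 (SD, n = 4). *Col9a1* made up 51.7% of the difference of 4821 between the means. Without it the sums ran from 13334 to 16513 in control and from 11574 to 13959 in CKO, and the groups overlapped.

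Levels of different genes were compared per kilobase of exon. On that scale the order in control was *Col9a1* (540 normalized counts per kb), *Col4a1* (350), *Col4a2* (312), *Col23a1* (256), *Col9a2* (232), *Col18a1* (222), *Col4a5* (166), *Col2a1* (164) and *Col6a1* (153). In the CKO the order was *Col4a1* (380), *Col4a2* (369), *Col9a2* (172), *Col6a1* (149), *Col4a5* (121), *Col18a1* (116), *Col23a1* (110) and *Col2a1* (101), and *Col9a1* (48.0) moved from rank 1 to rank 11. *Col9a1* alone was 19.2% of the collagen counts per kb in control and 2.48% in the CKO. *Col4a1* and *Col4a2*, the chains found in nearly every basement membrane, were 23.6% together in control and 38.6% in the CKO. By type, type IV was 31.9% ± 1.6 in control and 47.3% ± 2.2 in CKO (SD, n = 4), type IX 30.0% ± 1.1 and 13.8% ± 0.66, and type XXIII 9.15% ± 0.85 and 5.66% ± 0.59. For each of these 3 types the groups did not overlap. These shares are parts of a single total, so the share of type IV rises when type IX falls, and they were not tested.

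**Figure D2:**
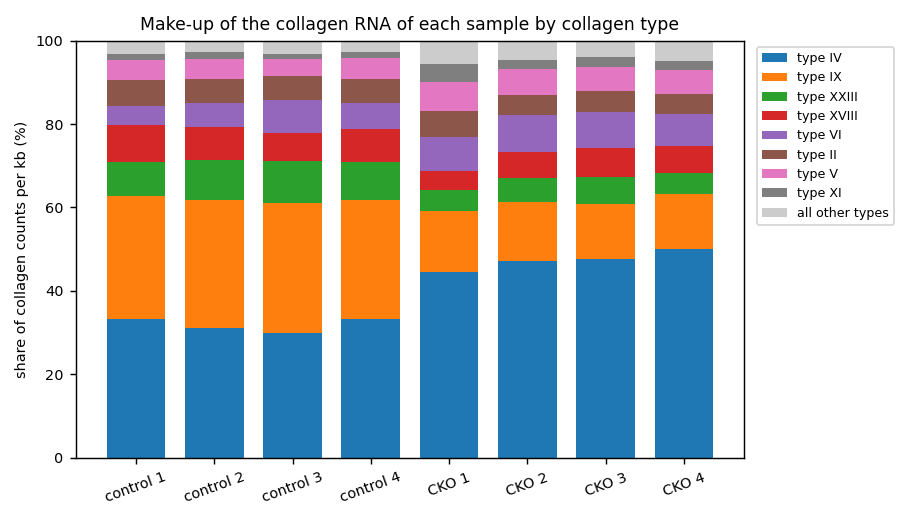
Share of the collagen counts per kb (y axis, percent) taken by each collagen type in each of the 8 samples (x axis). Type IX is 28.7 to 31.2% of each control bar and 13.2 to 14.5% of each CKO bar, and type IV is 30.0 to 33.2% and 44.5 to 50.0%.

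Type IX collagen, which decorates the fibrils of cartilage and vitreous, is made of 3 different chains, of which 1 passed the cutoff. *Col9a1* (ENSMUSG00000026147, GRCm38 chr1:24177610-24252684, + strand, 39 exon blocks) had 3013, 2929, 2568 and 2433 normalized counts in the controls and 196, 254, 275 and 249 in the CKO. The 4 controls lay far above every CKO sample and neither group spread by more than a small part of the gap. The log2FC was -3.50 (95% interval -3.72 to -3.27), an 11.3-fold fall (edgeR adjusted p = 5.7e-09), and by p it was the gene at rank 2 of the 13891 tested. It was called under every alternative tried, with a log2FC between -3.56 and -3.41. Control replicate 3 had 2568, between the other controls.

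*Col9a2* (chromosome 4), the second chain, had 795, 783, 622 and 667 in control and 563, 499.7, 499 and 569.8 in CKO, without overlap but much closer together. Its log2FC of -0.43 did not pass the cutoff in edgeR (adjusted p = 0.0046), while DESeq2 called it (adjusted p = 1.2e-04). *Col9a3* (chromosome 2) had 212, 275, 356 and 255 in control and 176, 163, 196 and 189 in CKO, with a log2FC of -0.60 (edgeR adjusted p = 0.0068; DESeq2 4.9e-04). Here too the groups did not overlap, and control replicate 3 was the highest of the 8 samples. *Col9a3* shares 234 exon bases, 6.07% of its exon length, with *Tcfl5* on the opposite strand, and the libraries did not keep strand. The other FACIT genes were low. *Col22a1*, a collagen of tissue junctions, had a mean of 69.7 ± 10.9 in control and 92.8 ± 5.76 in CKO, higher in every CKO sample than in any control (log2FC 0.42, edgeR adjusted p = 0.035). *Col20a1* (30.0 ± 10.4 and 45.6 ± 28.1), *Col16a1* (29.4 ± 3.54 and 22.2 ± 7.05) and *Col19a1* (13.2 ± 5.53 and 17.0 ± 4.06) overlapped between the groups and were not called. *Col19a1* is the neighbour of *Col9a1* on chromosome 1, tail to tail and 9.205 kb away, and its log2FC was 0.35 (95% interval -0.36 to 1.07).

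The annotated starts of *Col9a1* lie at 2 places 17.6 kb apart, and the reads were counted per gene, so a start could not be assigned to them. The RefSeq sequence (GRCm38.p6) from 250 bases before to 50 bases after a start is shown for both, because this gene fell most, and beside them for *Col23a1* and *Col1a2*, which also fell, and *Col4a1*, which did not. The capitals mark GGGCGG, the core of a GC box, on either strand (CCGCCC where it reads on the other strand). The search for TAATTA, a homeodomain core that reads the same on both strands, found none in these 5 windows, and the bases of one motif cannot overlap those of the other.
Col9a1 upstream start, chr1:24177360-24177659, + strand: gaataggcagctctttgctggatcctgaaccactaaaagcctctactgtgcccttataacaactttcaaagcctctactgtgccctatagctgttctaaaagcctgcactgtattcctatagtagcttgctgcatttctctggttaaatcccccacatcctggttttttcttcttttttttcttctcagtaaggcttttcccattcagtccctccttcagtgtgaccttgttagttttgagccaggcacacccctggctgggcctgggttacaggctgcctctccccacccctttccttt
Col9a1 downstream start, chr1:24194953-24195252, + strand: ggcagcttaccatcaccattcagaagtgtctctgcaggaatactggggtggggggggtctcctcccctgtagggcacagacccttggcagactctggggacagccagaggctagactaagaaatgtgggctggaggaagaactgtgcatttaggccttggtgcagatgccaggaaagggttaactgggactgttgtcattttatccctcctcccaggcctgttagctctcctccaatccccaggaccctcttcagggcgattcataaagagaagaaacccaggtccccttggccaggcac
Col23a1, chr11:51289670-51289969, + strand: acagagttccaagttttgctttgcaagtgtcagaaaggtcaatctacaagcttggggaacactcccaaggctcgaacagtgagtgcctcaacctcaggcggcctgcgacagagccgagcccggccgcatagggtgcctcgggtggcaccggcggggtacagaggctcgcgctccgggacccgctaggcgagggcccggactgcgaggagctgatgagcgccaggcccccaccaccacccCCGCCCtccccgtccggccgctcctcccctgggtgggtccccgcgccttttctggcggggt
Col1a2, chr6:4505368-4505667, + strand: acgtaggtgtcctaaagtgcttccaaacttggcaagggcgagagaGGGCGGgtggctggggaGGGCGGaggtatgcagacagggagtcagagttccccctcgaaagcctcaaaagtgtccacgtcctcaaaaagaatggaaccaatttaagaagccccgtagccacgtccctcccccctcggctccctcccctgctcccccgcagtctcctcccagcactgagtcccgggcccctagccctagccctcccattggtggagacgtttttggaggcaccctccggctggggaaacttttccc
Col4a1, chr8:11312777-11313076, - strand: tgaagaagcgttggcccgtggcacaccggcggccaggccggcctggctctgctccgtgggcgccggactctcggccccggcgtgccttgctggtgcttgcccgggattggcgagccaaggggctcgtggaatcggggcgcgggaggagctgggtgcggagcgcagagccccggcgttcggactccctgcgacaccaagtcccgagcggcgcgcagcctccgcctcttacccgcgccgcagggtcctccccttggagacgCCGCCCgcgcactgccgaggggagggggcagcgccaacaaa
Neither *Col9a1* window holds a GGGCGG, and they were 47.3% and 55.7% G and C. The windows of *Col23a1*, *Col1a2* and *Col4a1* hold 1, 2 and 1 and were 67.7%, 61.0% and 74.0% G and C, beside a median of 52.7% over all promoters in the table. RefSeq windows were matched for 35 of the 44 genes, 38 windows in all, and *Col2a1*, *Col1a1* and *Col9a3* are among the 9 genes without one. GGGCGG was in 60.5% of the 38 windows and in 35.7% of all 32851 promoters, and TAATTA in 2 of the 38 (5.26%) and in 5.29% of all promoters. These are matches of letters, not binding sites.

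Type II collagen, the main fibril of cartilage and vitreous, fell less than *Col9a1*. *Col2a1* (ENSMUSG00000022483, GRCm38 chr15:97975602-98004695, - strand) had 1718, 1596, 1344 and 1423 normalized counts in control and 1041, 807, 928 and 943 in CKO. The groups did not overlap, and the log2FC was -0.71 (95% interval -0.91 to -0.50, edgeR adjusted p = 2.2e-04), a 1.63-fold fall. The call was lost without control replicate 2, CKO replicate 3 or CKO replicate 4 (adjusted p = 0.0011 to 0.0013), with log2FC values between -0.71 and -0.67.

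Type XI collagen, the minor component inside the same fibrils, gave no call in edgeR. *Col11a1* had 305, 302, 196 and 268 in control and 265, 214, 221 and 219.8 in CKO, overlapping groups, with a log2FC of -0.22 (edgeR adjusted p = 0.25). *Col11a2* had 123, 153, 127 and 103 in control and 419, 172, 219 and 194 in CKO, so every CKO sample was above every control, but CKO replicate 1 stood at 419 while the other CKO samples were at 219 or lower. Its log2FC of 1.00 (95% interval 0.43 to 1.58) missed the cutoff in edgeR (adjusted p = 0.012) and passed it in DESeq2 (2.3e-04). Without CKO replicate 1 the log2FC was 0.62 and the cutoff was again missed (edgeR adjusted p = 0.0073). CKO replicate 1 was also the highest of the 8 samples for *Col24a1* (50.0 to 144 in CKO), *Col20a1* (15.3 to 83.4) and *Col7a1* (23.5 to 71.5).

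**Figure D3:**
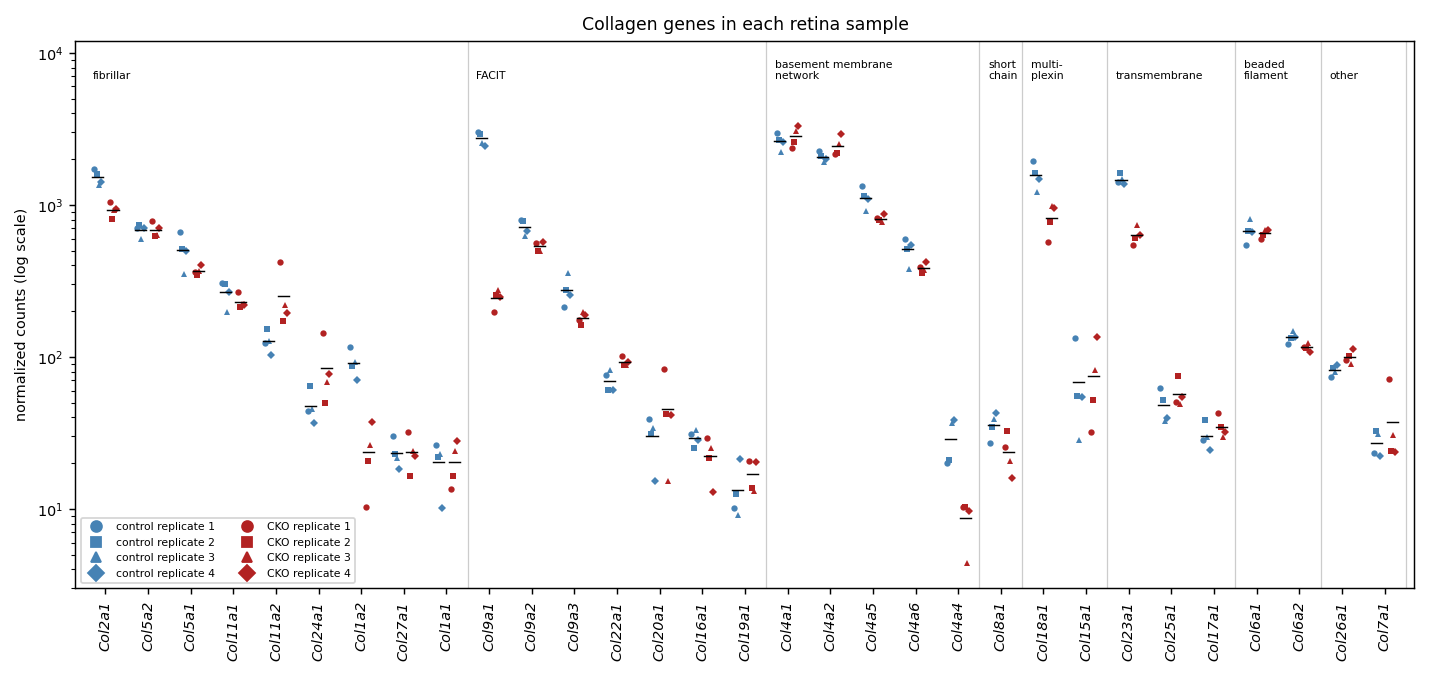
Normalized counts (y axis, log scale) of the 31 tested collagen genes in each sample, with 1 symbol per replicate, blue for control and red for CKO, and black lines for group means; the class marked other holds *Col26a1* and *Col7a1*. *Col9a1* shows the widest gap between the genotypes, and CKO replicate 1 (red circles) stands above the other CKO samples for *Col11a2*, *Col24a1*, *Col20a1* and *Col7a1*.

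Of the chains of type I collagen, the fibril of skin, bone and mesenchyme, 1 fell and the other was not called. *Col1a2* (ENSMUSG00000029661, GRCm38 chr6:4504814-4541544, + strand) had 116, 87.5, 92.5 and 69.9 normalized counts in control and 10.3, 20.7, 26.3 and 37.3 in CKO. The groups did not overlap, and the log2FC was -1.98 (95% interval -2.63 to -1.33, edgeR adjusted p = 4.5e-04), a 3.95-fold fall. The call was lost with the replicate number as a block (adjusted p = 0.0024) and without control replicate 1, control replicate 2, CKO replicate 2 or CKO replicate 3 (0.0016 to 0.0022), while the log2FC stayed between -2.29 and -1.72. *Col1a1*, its partner chain, had 10.1 to 26.2 in control and 13.5 to 27.7 in CKO, with a log2FC of -0.01 (95% interval -0.73 to 0.70). *Col3a1*, the fibril that accompanies type I in soft tissue, had 6.08 to 16.1 in control and 9.48 to 30.9 in CKO and was below the level tested.

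Type V collagen starts fibrils of type I. *Col5a1* had 657, 511, 353 and 498 in control and 361, 345, 366 and 403 in CKO, overlapping only through control replicate 3 (log2FC -0.45, edgeR adjusted p = 0.036). *Col5a2* had 705, 738, 593 and 706 in control and 779, 625, 632 and 704 in CKO, interleaved, with a log2FC of 0.0021 (95% interval -0.20 to 0.21). *Col24a1* (47.7 ± 11.9 and 84.6 ± 41.0) and *Col27a1* (23.3 ± 5.04 and 23.7 ± 6.34), fibrillar collagens of developing bone and cartilage, were not called, and *Col5a3* was below the level tested.

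Within type IV, 0 of the 5 chains tested passed the cutoff in edgeR. DESeq2 called 2 lower (*Col4a4* and *Col4a5*), against 8.78% of all genes. At an unadjusted edgeR p below 0.05 there were 1 higher and 3 lower, against 21.3% and 22.3% of all genes. *Col4a1* (chromosome 8) had 2981, 2681, 2208 and 2574 in control and 2362, 2605, 3075 and 3316 in CKO, and *Col4a2*, with which it shares a start region, had 2269.5, 2107, 1902 and 1989.8 and 2158, 2182, 2499 and 2927. Both overlapped between the genotypes, with a log2FC of 0.12 (95% interval -0.12 to 0.36) and 0.24 (0.03 to 0.45). The 2 genes lie head to head and their first exons overlap by 22 bases.

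*Col4a5* and *Col4a6*, head to head on chromosome X and 1.308 kb apart, encode chains of basement membranes of the lens, kidney and smooth muscle. *Col4a5* had 1326, 1137, 905 and 1092 in control and 822, 796, 765 and 865 in CKO, without overlap, and a log2FC of -0.46 (edgeR adjusted p = 0.0044; DESeq2 7.0e-05). *Col4a6* had 598, 511, 379 and 547 in control and 392, 357, 372 and 422 in CKO, overlapping only through control replicate 3, and a log2FC of -0.40 (edgeR adjusted p = 0.028). Without control replicate 3 both passed the cutoff, *Col4a5* with a log2FC of -0.54 (edgeR adjusted p = 2.7e-04) and *Col4a6* with -0.52 (7.1e-04). *Col4a4*, a chain of mature kidney and eye basement membranes, was low, at 20.1 to 38.5 in control and 4.38 to 10.3 in CKO (log2FC -1.69, edgeR adjusted p = 0.0026). Its neighbour *Col4a3*, 71 bases away head to head, had 7.05 to 13.7 and 3.20 to 7.75 and was below the level tested.

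Type XVIII collagen, a basement membrane multiplexin whose end fragment is endostatin, was lower in every CKO sample. *Col18a1* had 1931, 1625, 1216 and 1472 in control and 565, 766, 987 and 953 in CKO, a wide spread in both groups. The log2FC was -0.94 (95% interval -1.31 to -0.57), which missed the cutoff in edgeR (adjusted p = 0.0015) and passed it in DESeq2 (1.6e-04) and without control replicate 3 (log2FC -1.04, edgeR adjusted p = 6.3e-04). *Col15a1*, the other multiplexin and a marker of vessels, had 28.5 to 134 in control and 31.8 to 136 in CKO, with a log2FC of 0.11 (95% interval -0.93 to 1.15). It was highest in control replicate 1 and CKO replicate 4, the samples in which the sum of the endothelial markers other than *Kdr* was highest within each genotype (598 and 583). *Cdh5*, the endothelial cadherin named after its values were seen, ran from 37.7 to 109.8 and from 27.0 to 111 with the same samples on top. With *Kdr*, which is most of the full endothelial sum, control replicate 4 was the highest control (4760) and control replicate 1 was at 4541. In the CKO, replicate 4 stayed highest with *Kdr* (3645). A link of *Col15a1* to vessel content was not tested.

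Of the transmembrane collagens, type XXIII fell and the others were low. *Col23a1* (ENSMUSG00000063564, GRCm38 chr11:51289920-51583918, + strand), a membrane collagen that can be shed, had 1412, 1627, 1467 and 1360.0 normalized counts in control and 547, 601, 734 and 634 in CKO. The lowest control, at 1360.0, lay well above the highest CKO sample, at 734. The log2FC was -1.22 (95% interval -1.42 to -1.03, edgeR adjusted p = 2.7e-06), a 2.34-fold fall that was called under every alternative. *Col25a1*, found in neurons, had a mean of 47.9 ± 11.6 in control and 57.2 ± 12.1 in CKO, and *Col17a1*, of the hemidesmosome, 30.2 ± 6.01 and 34.7 ± 5.81. Neither was called, and *Col13a1* was below the level tested.

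Type VI collagen forms beaded filaments around cells. *Col6a1* had 542, 668, 809 and 663 in control and 599.8, 638, 686 and 679 in CKO, interleaved, with a log2FC of -0.04 (95% interval -0.27 to 0.18). *Col6a2* had 122, 132, 148 and 136 in control and 116, 115, 123 and 108 in CKO (log2FC -0.22, edgeR adjusted p = 0.11). *Col6a3*, the chain that joins these 2 in the usual trimer, had 0 to 6.36 normalized counts in any sample. *Col8a1*, of the short chain collagens of the cornea and vessels, had a mean of 35.7 ± 6.60 in control and 23.7 ± 7.13 in CKO. *Col26a1* (81.5 ± 6.28 and 99.7 ± 10.0) and *Col7a1* (27.1 ± 5.15 and 37.4 ± 22.9), the anchoring fibril, completed the genes tested, and none of these was called. The 13 genes below the level tested were *Col3a1*, *Col4a3*, *Col5a3*, *Col6a3*, *Col6a4*, *Col6a5*, *Col6a6*, *Col8a2*, *Col10a1*, *Col12a1*, *Col13a1*, *Col14a1* and *Col28a1*, with group means of 0.26 to 17.5 normalized counts. At this depth a difference in these genes was not tested.

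Chains that assemble into the same trimer were set against each other as ratios of counts per kb within a sample, for 8 pairs. *Col9a1* over *Col9a2* was 2.31, 2.28, 2.52 and 2.23 in control and 0.213, 0.311, 0.336 and 0.266 in CKO. *Col1a2* over *Col1a1* was 2.34, 2.11, 2.14 and 3.64 in control and 0.404, 0.667, 0.576 and 0.711 in CKO. Neither pair overlapped between the genotypes, and in both the order of the chains turned on this scale. For type I the turn depends on the exon lengths used, 12.4 kb for *Col1a2* and 6.56 kb for *Col1a1*. Not divided by length, the CKO mean of *Col1a2* (23.7 normalized counts) stayed above that of *Col1a1* (20.4). *Col1a1* was low, at 10 to 26 reads in each sample. The ratio of *Col11a2* to *Col11a1* was 0.899 ± 0.222 in control and 1.97 ± 0.65 in CKO, and that of *Col5a2* to *Col5a1* was 1.24 ± 0.22 and 1.65 ± 0.18 (SD, n = 4), also without overlap. These 4 ratios had the smallest two-sided p that an exact permutation test of 4 against 4 allows, 0.0286, or 0.0571 adjusted over the 8 pairs. *Col4a2* over *Col4a1* was 0.897 ± 0.051 in control and 0.972 ± 0.051 in CKO (exact permutation p = 0.0857, adjusted 0.114), and *Col6a2* over *Col6a1* was 0.107 ± 0.0091 and 0.0934 ± 0.0075 (exact permutation p = 0.0571, adjusted 0.0914). *Col4a6* over *Col4a5* was 0.383 ± 0.029 and 0.400 ± 0.015 (exact permutation p = 0.371, adjusted 0.424), and *Col9a3* over *Col9a2* was 0.316 ± 0.104 and 0.273 ± 0.029 (exact permutation p and adjusted p = 0.6). For each of the latter 4 pairs the ratios overlapped between the genotypes.

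**Figure D4:**
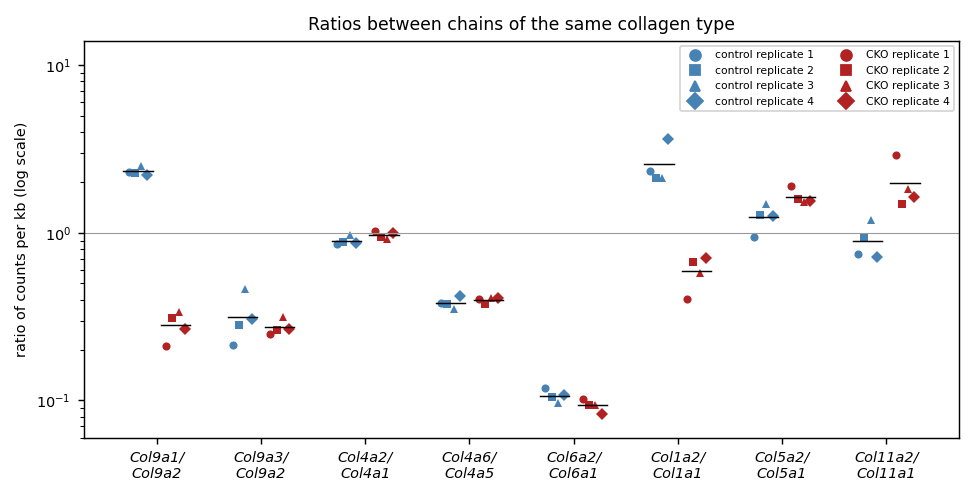
Ratio of counts per kb (y axis, log scale) for 8 pairs of chains of the same collagen type, with 1 symbol per replicate, blue for control and red for CKO, and black lines for group means. *Col9a1* over *Col9a2* and *Col1a2* over *Col1a1* lie above 1 in all controls and below 1 in all CKO samples.

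By likely cell source, assigned from general knowledge and not measured here, the genes of vitreous and cartilage-type fibrils (*Col2a1*, *Col9a1*, *Col9a2*, *Col9a3*, *Col11a1*, *Col11a2*) had 2 of 6 members called lower, against 4.97% of all genes, and a median log2FC of -0.51, beside 0.0053 over all genes. DESeq2 called 4 of the 6 lower and 1 higher, against 8.78% and 7.57%. The mesenchymal genes had 1 of 8 tested called lower by either tool (*Col1a2*) and a median of -0.30, with 5 of the 13 listed below the level tested. Of the 8, 4 were lower and 0 higher at an unadjusted edgeR p below 0.05, against 22.3% and 21.3% of all genes. A log2FC below 0 was found for 7 of them, against 49.2% of all genes. The genes of vessels and basement membranes (*Col4a1*, *Col4a2*, *Col15a1*, *Col18a1*) had 0 of 4 called in edgeR and a median of 0.11, with 1 called lower by DESeq2. At an unadjusted edgeR p below 0.05 they had 1 in each direction, against 21.3% of all genes higher and 22.3% lower. The genes of neurons (*Col19a1*, *Col25a1*) had 0 of 2 called by either tool or at an unadjusted p below 0.05, and a median of 0.30. Some genes were assigned to no source, among them the called *Col23a1*. The basement membrane chains *Col4a4*, *Col4a5* and *Col4a6* (log2FC -1.69, -0.46 and -0.40) were also unassigned, so the median of 0.11 does not cover them.

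Markers of these sources were measured in the same samples, and their calls are read against the 4.97% of all genes called lower and the 3.64% called higher. Retinal progenitor markers were lower in the CKO, with 5 of 8 called lower and a summed level of 33875 to 36164 normalized counts in control and 24500.4 to 25984 in CKO, and neuron markers were higher, with 4 of 7 called higher (40409 to 46580.4 and 55277 to 58979), or 6 without control replicate 3. Of 7 ciliary margin markers 1 (*Msx1*) was called lower in edgeR. In DESeq2 2 were lower (*Msx1* and *Wfdc1*), against 8.78% of all genes. At an adjusted edgeR p below 0.05, 4 were lower and 1 higher (*Ccnd2*), against 17.4% and 15.9%. The median log2FC was -1.53. *Msx1* had 154, 122, 12.6 and 59.7 in control and 0.79, 0.86, 4.38 and 3.20 in CKO (log2FC -5.29, edgeR adjusted p = 5.5e-04). It had enough reads to be tested only through the controls, the group in which it was higher, and its calls carry that limit. Control replicate 3 was the lowest control for each of the 7. Without it *Msx1*, *Otx1* (log2FC -1.83, edgeR adjusted p = 6.2e-04), *Wfdc1* (-2.69, 1.4e-06) and *Bmp4* (-3.68, 2.7e-04) were called lower, whereas without CKO replicate 1 none of the 7 was. *Msx1* lost its call without any 1 of the 4 CKO samples (edgeR adjusted p = 0.0018 to 0.0030; without CKO replicate 1, log2FC -4.98). The sum of the 7 was 805 to 2506 in control and 1595 to 2417 in CKO, most of it *Ccnd2*, and without *Ccnd2* it was 1049, 822, 279 and 693 in control and 292, 410.1, 393 and 398 in CKO. Of 8 pigment cell markers 5 were tested and 1 (*Pmel*) was called lower, or 3 without control replicate 3. All 5 had a log2FC below 0, with a median of -1.52. At an adjusted edgeR p below 0.05, 4 were lower, against 17.4% of all genes, and DESeq2 called 3 lower, against 8.78%. The list summed to 265 to 460.1 in control and 139.8 to 173 in CKO, with *Rpe65* at 0 to 1 read in every sample. Of 9 mesenchymal markers 1 had enough reads to be tested (*Pdgfra*, 64.4 to 174 in control and 193 to 467 in CKO). With a log2FC of 1.27 it was not called, but it was higher at an adjusted edgeR p below 0.05. The list summed to 99.3 to 199 in control and 237 to 527 in CKO, without overlap, and *Pdgfra* alone was most of each CKO sum. The defining mesenchymal genes *Twist1*, *Dcn* and *Lum* had 0 to 4 reads in each sample. Cartilage markers summed to 4.17 to 27.2 and 20.7 to 50.2, with *Acan* and *Matn1* at 0 or 1 read. Of 9 endothelial markers 8 were tested and 2 were called lower (*Kdr* and *Cldn5*). *Kdr*, which retinal progenitors also express, lost its call without control replicate 4. The list without *Kdr* summed to 397 to 598 and 242 to 583. Of 7 pericyte markers 5 were tested and 0 called (list sums 406 to 588 and 346 to 714). Of 8 lens markers 2 were tested and 0 called (33.4 to 79.5 and 54.3 to 105). Of 6 blood markers 5 were tested and 0 called (374 to 2344 and 585 to 1889), and of 7 macrophage markers, all tested, 0 were called (779 to 967 and 651 to 873). At an unadjusted edgeR p below 0.05 these 4 lists had 2, 1, 0 and 0 genes, against 21.3% of all genes higher and 22.3% lower. DESeq2 called 0, 1, 0 and 0, against 7.57% higher and 8.78% lower. The part of these cell types in the collagen results was not tested.

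Genes that make, process and bind collagen were counted as a background to the family, from 4 lists of 62 genes of which 41 were tested. Of the 41, 4 were called lower and 2 higher, again beside 4.97% and 3.64% of all genes. In synthesis and folding, *Serpinh1*, the collagen chaperone of the endoplasmic reticulum, had 4624, 3809, 3820.1 and 3999.8 normalized counts in control and 2222, 2509, 2665 and 2673 in CKO (log2FC -0.69, edgeR adjusted p = 4.9e-05). *Crtap*, a subunit of the complex that modifies prolines of fibrillar collagen, had 259.8, 204, 226 and 218 in control and 108, 132, 116 and 144 in CKO (log2FC -0.86, edgeR adjusted p = 1.8e-04). Both were lower in every CKO sample. *Colgalt2*, which adds galactose to hydroxylysine, went the other way, at 249.7, 266, 274 and 308 in control and 563, 484, 458 and 481 in CKO (log2FC 0.86, edgeR adjusted p = 4.8e-05). The remaining 16 of the 19 tested, the prolyl and lysyl hydroxylases and export genes among them, were not called.

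In processing and crosslinking, 2 of 7 genes tested fell. *Tll1*, a protease that trims procollagen ends, had 249, 272, 253 and 304 in control and 119, 174, 164 and 158 in CKO (log2FC -0.81, edgeR adjusted p = 3.8e-04). *Pcolce*, an enhancer of that class of protease, had 88.6, 58.3, 62.8 and 72.9 in control and 29.4, 25.0, 30.6 and 30.9 in CKO (log2FC -1.29, edgeR adjusted p = 2.9e-04). Neither gene overlapped between the genotypes. Each lost its call when any of 5 single samples was left out (edgeR adjusted p = 0.00103 to 0.00174 for *Tll1* and 0.0011 to 0.0015 for *Pcolce*). The lysyl oxidases *Loxl1*, *Loxl2* and *Loxl3*, which crosslink collagen, were not called, and *Lox* and *Loxl4* were below the level tested.

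Of the 9 collagen receptors tested, 0 were called in edgeR. DESeq2 called 1 in each direction, against 7.57% of all genes higher and 8.78% lower. At an unadjusted edgeR p below 0.05, 4 were higher and 2 lower, against 21.3% and 22.3%. *Ddr1*, a receptor kinase for collagen, had 6870.1 ± 283 normalized counts in control and 7701 ± 440.1 in CKO, and *Adgrg1*, an adhesion receptor for type III collagen, 3456 ± 220.0 and 4232 ± 300.4 (edgeR adjusted p = 0.0034; 9.9e-04 without control replicate 3, log2FC 0.33). *Itgb1*, the shared beta chain of the collagen integrins, had 3826 ± 281 and 3079 ± 241 (edgeR adjusted p = 0.0043; 5.1e-04 without control replicate 3, log2FC -0.36). *Itga2*, an alpha chain of a collagen-binding integrin, was low but without overlap, at 3.12 to 10.1 in control and 20.7 to 28.8 in CKO (log2FC 1.61, edgeR adjusted p = 0.0026). It had enough reads to be tested only through the CKO samples, the group in which it was higher.

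Among 6 matrix partners tested, 1 was called in edgeR. DESeq2 called 3 higher (*Prelp*, *Hapln1* and *Vcan*), against 7.57% of all genes. The same genes were higher at an adjusted edgeR p below 0.05, against 15.9% of all genes. *Prelp*, a leucine-rich proteoglycan that links basement membrane to fibrils, had 32.2, 47.9, 49.1 and 43.5 in control and 165, 140.4, 108 and 136 in CKO (log2FC 1.68, edgeR adjusted p = 3.4e-05), the opposite direction to *Col9a1*. *Optc*, which encodes opticin, a vitreous proteoglycan made at the ciliary margin, had 207, 218, 30.8 and 148 in control and 42.1, 28.4, 35.0 and 47.0 in CKO. It overlapped only through control replicate 3 (log2FC -1.99, edgeR adjusted p = 0.0058), and without that sample it was called lower (log2FC -2.32, edgeR adjusted p = 1.6e-05). *Hapln1*, a hyaluronan link protein, was higher in every CKO sample, at 3.12 to 12.1 in control and 17.5 to 50.2 in CKO, and missed the cutoff (log2FC 2.45, edgeR adjusted p = 0.0012) unless CKO replicate 1 was left out (2.69, 1.8e-04). *Vcan*, which encodes the large proteoglycan versican, had 1468, 1877, 1246 and 1870.3 in control and 2579, 2019, 2133 and 2201 in CKO, without overlap (log2FC 0.47, edgeR adjusted p = 0.015).

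**Figure D5:**
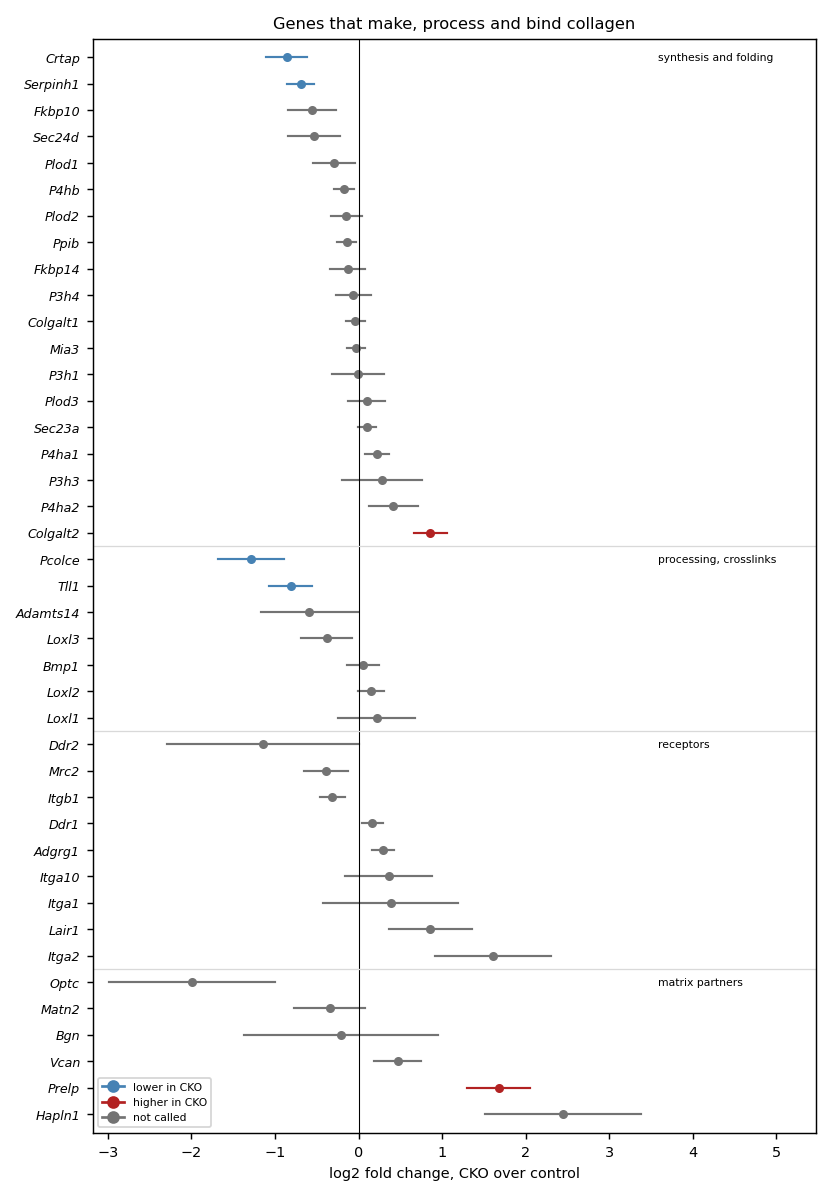
Log2 fold change (x axis, CKO over control, log2 units) of the 41 tested genes that make, process or bind collagen, in 4 groups, with points for the edgeR estimate and bars for its 95% interval. *Crtap*, *Serpinh1*, *Pcolce* and *Tll1* are coloured as lower and *Colgalt2* and *Prelp* as higher.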

How the data were processed

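RNA was measured in 8 samples, 4 control and 4 *Lhx2* CKO retina pairs. The authors prepared unstranded poly(A) libraries, read them from a single end and aligned them with TopHat 2 to the mm10 genome; HTSeq then gave the deposited values, raw read counts per gene that are neither normalized nor pooled. The submitters' processing notes also name Cufflinks, while the sources used here do not give tool versions, the strand setting or the annotation release. Each column was tied to its sample by the run name in the labels, and 0 columns were left unmatched. Coordinates, exon lengths (the union of all annotated transcripts) and overlaps come from GENCODE M21 on GRCm38, in which 28232 of the 28432 gene IDs were found.

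Genes with at least 20 normalized counts (median-of-ratios size factors) in at least 3 samples were tested with the quasi-likelihood test of edgeR 4.0.16 in R 4.3.3, two-sided, scaled by TMM and with no term but genotype, and called at a Benjamini-Hochberg adjusted p below 0.001 over all 13891 genes. Normalized counts serve for levels only, and log2FC values are not shrunken. In simulated data of the same size this test called 50.7% of genes changed 1.5-fold, 80.6% of those changed 2-fold and 93.9% of those changed 4-fold, with 1 false call. Samples of a genotype differed by more than counting noise (chi-square per gene 3.54 to 20.8). The alternatives were DESeq2 1.42.0, median-of-ratios scaling, no filter, a cutoff of 0.05, the replicate number as a block, embryo sex read from *Xist* and Y-linked genes, and leaving out each sample in turn. Leaving out control replicate 3 and CKO replicate 1 together was added after the data were seen.

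Values in every sample were given for called members and those averaging 100 normalized counts or more, and ranges or means for the rest. The collagen genes, the gene lists, the likely sources and this rule were chosen with earlier results of these data known. *Col15a1*, *Cdh5*, *Col4a4*, *Itga2*, *Vcan* and the ciliary margin genes were singled out after their values were seen. From the lists of partner genes, up to 6 called genes a list were named by p, and members that define a list where none was called. A mesenchymal marker on the original list is not reported here.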

Additional observations from a re-analysis of the deposited data

Results flagged for a closer look

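In 3 of 62 groups of 4 samples, 1 sample lay farther from the rest than Dixon's 95% limit allows, and chance alone gives about 1 in 20. CKO replicate 1 was the highest for *Col11a1*, at 265 normalized counts beside 214 to 221 in the other CKO samples, and for *Col7a1*, at 71.5 beside 23.5 to 30.6. CKO replicate 3 was the lowest for *Col4a4*, at 4.38 beside 9.60 to 10.3. Without CKO replicate 1 the log2FC of *Col7a1* changed sign, to -0.06, and neither value was called.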

How the results depend on the processing

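The count of collagen genes lower in the CKO was 4 with median-of-ratios scaling and with embryo sex as a covariate, as in the text. It was 9 with DESeq2, 9 with no filter on low counts, 11 at an adjusted p below 0.05, 2 to 7 when each sample was left out in turn (2 without control replicate 2 or CKO replicate 3, 7 when control replicate 3 was left out) and 9 without control replicate 3 and CKO replicate 1 together, an alternative added once the data had been seen. Collagen genes called higher numbered 1 with DESeq2, 1 with no filter and 2 at an adjusted p below 0.05, and 0 otherwise. In that added alternative *Col18a1*, *Col4a5*, *Col4a6*, *Col5a1* and *Col9a2* passed the cutoff. Over all genes the calls were 1196 as in the text, 2271 with DESeq2, 2055 without the filter, 4619 at an adjusted p below 0.05, 686 to 1553 with each sample left out and 2104 without both samples. The partner genes gave 2 higher and 4 lower, and 2 to 5 higher and 2 to 6 lower under the alternatives at a cutoff of 0.001.

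The replicate numbers in the labels did not pair the samples: deviations of same-numbered samples correlated with r = 0.13, -0.15, 0.05 and -0.12. With the replicate number as a block 3 collagen genes were lower and 0 higher (676 genes in all, against 1196), and *Col1a2* was the call lost.

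The direction changed only for collagen genes that were not called. *Col5a2* was -0.00056 (log2FC) with DESeq2, -0.00054 with median-of-ratios scaling, -0.0014 with no filter, -6.9e-05 with the block and -0.14 without both samples. Without both samples *Col6a1* was 0.092, *Col1a1* 0.20 and *Col27a1* -0.20. With each sample left out in turn, log2FC values ran from -0.075 to 0.054 for *Col5a2*, from -0.13 to 0.06 for *Col6a1*, from -0.23 to 0.15 for *Col1a1*, from -0.063 to 0.68 for *Col7a1*, from -0.33 to 0.67 for *Col15a1* and from -0.17 to 0.19 for *Col27a1*. The cause of these changes was not tested. At this number of samples and depth, 1.5-fold changes were often missed in simulated data, and genes below 20 normalized counts were not tested.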
